A study of Mus musculus with 24 samples.

Results

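Immune checkpoint genes encode cell surface receptors and ligands that raise or lower the activity of immune cells on contact. The 7 genes described here are Lag3, Havcr2, Cd200r1, Cd274, Vsir, Cd80 and Cd86, which were picked by symbol from the 49315 genes of the count table. Each symbol matched a single gene, and all 7 passed the filter on low counts that left 17579 genes for testing. Their levels were followed in 24 RNA-seq libraries of mouse brain microglia, the resident macrophages of the brain collected by flow cytometry on CD45 (intermediate) and CD11b (positive).

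The mice were adult and had been given tamoxifen, which activates creERT2, a Cre recombinase driven here by Cx3cr1, a gene of microglia and other myeloid cells. Cre+ animals are described as knockouts of Dicer1, whose product cuts precursor RNAs into mature miRNAs, and Cre- animals as wild type. Whether Cre- animals also carried the Dicer1 alleles that Cre deletes is not given in the sources used here. Each genotype had 3 biological replicates in each of 4 states, hence 8 groups. Naive mice received tamoxifen only. Demyelination mice had tamoxifen at 4 to 5 weeks and 6 weeks of cuprizone, a copper chelator that kills oligodendrocytes. The other mice had 6 weeks of cuprizone and then 6 weeks of normal diet, during which myelin is rebuilt. Tamoxifen was given at 4 to 5 weeks in the group called start remyelination, and in week 5 of cuprizone, at the peak, in the group called peak remyelination. What the 4 to 5 weeks are counted from is not given in the sources used here.

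In the immune system LAG3 binds MHC class II on other cells and dampens T cells, TIM-3 (the product of Havcr2) binds galectin-9, HMGB1, CEACAM1 and phosphatidylserine, and CD200R1 receives CD200, which neurons display to quiet microglia. PD-L1 (Cd274) is the ligand of PD-1 and also contacts CD80. VISTA (Vsir) acts as ligand and as receptor and binds PSGL-1, the product of Selplg. CD80 and CD86 are the ligands of the activating receptor CD28 and of the inhibitory receptor CTLA-4. Most of these genes are best known from T cells and antigen-presenting cells, and several are also part of the surface of microglia.

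Library totals were 19476284 to 44526670 counts in naive, 21865238 to 32708382 in demyelination, 8873275 to 12560540 in start and 8940567 to 12092415 in peak remyelination. The titles of the remyelination libraries follow naming schemes of their own, so that library set and depth cannot be told apart from state in comparisons across them. Cx3cr1, which carries the recombinase, stood at 41.4% to 59.3% of the Cre- mean of the same state in 9 Cre+ libraries and at 1.61% to 2.18% in the other 3, which were naive Cre+ replicate 1 and demyelination Cre+ replicates 1 and 3. Where a call on 1 of the 7 genes changed without these 3 libraries, both values are given. Dicer1 had group means of 13.9 CPM in Cre- and 22.7 CPM in Cre+ in naive (higher in Cre+, adjusted p = 0.00151), 20.3 and 14.9 in demyelination, 35.9 and 33.5 in start and 32.9 and 31.5 in peak remyelination. In no state did Dicer1 fall in Cre+ by the test, and its counts sum all exons, so that they do not test the deletion. The 8 microglial markers summed to 33510 to 73030 CPM (counts per library total scaled by the trimmed mean of M values, TMM) across the libraries. Fewer cells of a type and less RNA per cell cannot be told apart in such bulk samples.

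Markers of T cells, in which Lag3, Pdcd1 and Ctla4 are best known, were near 0. Cd3e, Cd3d and Cd3g together reached 0.00 to 1.59 CPM over the 24 libraries, and Trac and Trbc2 together 0.00 to 1.59 CPM. The full list of 14 T and NK cell markers summed to 53.64 to 72.26 CPM in naive Cre- and 111.3 to 143.3 CPM in naive Cre+ libraries. Most of this was Il7r, the interleukin-7 receptor gene, which alone held 52.0 to 70.8 and 110.0 to 142.0 CPM. Without Il7r, the other 13 markers summed to 0.796 to 8.37 CPM in all libraries. In naive Cre- libraries Cd3g, Cd8a, Cd2 and Gzma were at 0, and in naive Cre+ libraries Cd3e, Cd3d and Gzma.

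Compared per kb of transcript, Vsir was the most abundant of the 7, with a median of 393.5 CPM per kb over the 24 libraries and a range of 231.4 to 597.1. Havcr2 (median 156.5 CPM per kb) and Cd86 (147.0) followed. The other 4 were far lower, at medians of 22.5 for Lag3, 13.5 for Cd200r1, 7.58 for Cd274 and 4.52 for Cd80. Lag3 varied most. Its highest library held 16.2 times the CPM of its lowest, against 4.61 times for Cd274, 4.03 times for Cd200r1 and 1.94 to 2.58 times for the remaining 4 genes. The raw counts behind these values ran from 141 to 1424 for Lag3 and from 167 to 1250 for Cd80, and reached 114554 for Vsir.

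Lag3 (ENSMUSG00000030124, GRCm38 chromosome 6, 124904361 to 124911705, minus strand, 8 exons in its longest transcript) encodes an inhibitory receptor of the immunoglobulin superfamily. In naive microglia the Cre- libraries carried Lag3 at 34.0, 26.8 and 27.2 CPM, and Cre+ libraries carried it at 6.60, 11.8 and 9.54 CPM. In demyelination the Cre- libraries held 56.5, 57.6 and 48.8 CPM and the Cre+ libraries 37.2, 46.2 and 36.9 CPM. All 3 Cre+ libraries lay below all 3 Cre- libraries in both states, with a wide gap in naive and a narrow gap in demyelination.

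In start remyelination Lag3 reached 80.7, 107.2 and 82.7 CPM in Cre- and 59.2, 62.2 and 61.3 CPM in Cre+. In peak remyelination it was 84.9, 100.5 and 75.3 CPM in Cre- against 42.3, 24.3 and 24.8 CPM in Cre+. Again no Cre+ library overlapped the Cre- range. As a share of the Cre- mean, Cre+ microglia carried 31.8% in naive, 73.9% in demyelination, 67.5% in start and 35.1% in peak remyelination.

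**Figure D1:**
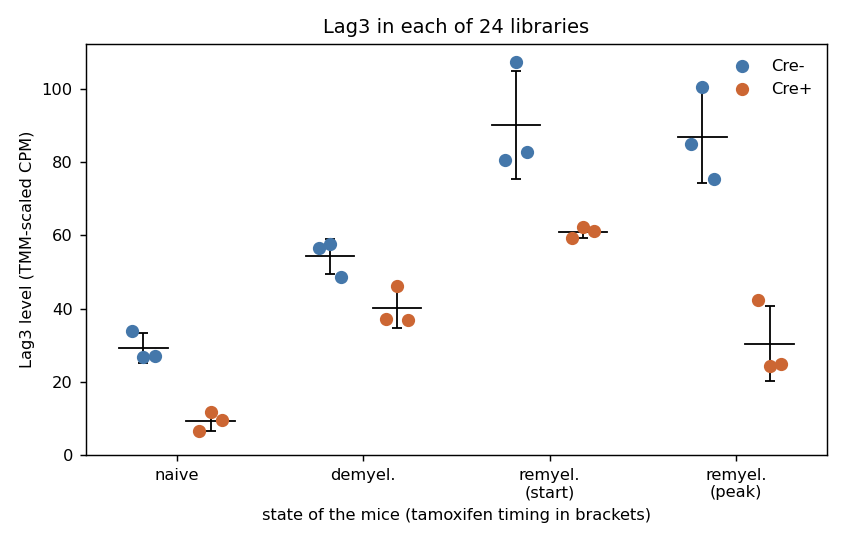
Lag3 in TMM-scaled CPM (vertical axis) for each of the 24 libraries in the 4 states (horizontal axis), with Cre- in blue and Cre+ in orange. Points are libraries, black lines are means and bars are 1 SD (n = 3 per group). Cre+ points lie below Cre- points in every state, from 6.60 to 11.8 CPM against 26.8 to 34.0 CPM in naive and from 24.3 to 42.3 CPM against 75.3 to 100.5 CPM in peak remyelination.

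Tested by edgeR with Benjamini-Hochberg adjustment over all 17579 genes, Lag3 was lower in Cre+ with a log2 fold change of -1.63 ± 0.20 in naive (SE, n = 3 per group, adjusted p = 7.35e-06) and of -1.51 ± 0.20 in peak remyelination (adjusted p = 4.67e-05). Both calls held in all alternatives tried, 14 in naive and 13 in peak remyelination. In demyelination the difference was -0.44 ± 0.19 (adjusted p = 0.17) and in start remyelination -0.57 ± 0.19 (adjusted p = 0.324), neither of which passed the threshold of 0.05. Lag3 did pass in demyelination without a filter (-0.38, adjusted p = 0.042) and in a fit of only the 6 libraries of that state (-0.44, adjusted p = 0.0316), and in start remyelination without a filter (-0.52, adjusted p = 0.0148). Without the 3 libraries of very low Cx3cr1 the naive difference was -1.48 (adjusted p = 3.84e-05) and the demyelination difference -0.19 (adjusted p = 0.94), the latter with 1 Cre+ library left, whose spread is taken from the other groups.

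The genotype difference in Lag3 was smaller in demyelination than in naive by 1.19 ± 0.28 on the log2 scale (interaction in edgeR, adjusted p = 0.0061), and by 1.29 (adjusted p = 0.0137) without the 3 low-Cx3cr1 libraries. Between demyelination and start remyelination it changed by -0.13 ± 0.27 (adjusted p = 0.864). Between start and peak tamoxifen timing the change was -0.95 ± 0.27 (adjusted p = 0.0569), just outside the threshold. The same value passed with DESeq2 (adjusted p = 0.0118) and with DESeq2's size factors in edgeR (adjusted p = 0.0491), as well as without a filter (adjusted p = 4.89e-06) and with a stricter filter (adjusted p = 0.0401), so that the call depends on the tool, the scaling and the filter. Leaving out peak remyelination Cre- replicate 3 (-1.03, adjusted p = 0.0439) or Cre+ replicate 1 (-1.25, adjusted p = 0.00339) also brought Lag3 past the threshold.

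Lag3 was higher in demyelination than in naive and higher again in start remyelination, in both genotypes. From naive to demyelination it rose by 0.89 ± 0.19 (log2) in Cre- (adjusted p = 0.000902) and by 2.08 ± 0.20 in Cre+ (adjusted p = 2.19e-08, and 2.16 with adjusted p = 1.29e-06 without the low-Cx3cr1 libraries). It rose again from demyelination to start remyelination, by 0.73 ± 0.19 in Cre- (adjusted p = 0.00261) and by 0.60 ± 0.19 in Cre+ (adjusted p = 0.00938). The latter call was lost without the 3 low-Cx3cr1 libraries (0.40, adjusted p = 0.202). Markers of border-associated macrophages moved over the same steps. In Cre- libraries they summed to 18.81 to 26.07 CPM in naive, 104.9 to 166.6 CPM in demyelination and 342.5 to 390.7 CPM in start remyelination, with 6 and then 5 of the 6 called higher, and in Cre+ libraries 6 of 6 were called higher at each step. Of all genes 35.9% and 54.7% were called at these steps in Cre-, and 52.2% and 63.3% in Cre+. None of the 6 markers was at 0, and their part in the Lag3 rise was not tested. Start remyelination exceeded naive by 1.62 ± 0.19 in Cre- and by 2.69 ± 0.21 in Cre+, a fold change of 3.08 and 6.44. By group mean the order ran from start remyelination Cre- (90.2 CPM) and peak remyelination Cre- (86.9 CPM), whose ranges overlapped, through start remyelination Cre+ (60.9), demyelination Cre- (54.3) and demyelination Cre+ (40.1) to peak remyelination Cre+ (30.5), naive Cre- (29.4) and naive Cre+ (9.32). Peak remyelination Cre+ overlapped both demyelination Cre+ and naive Cre-.

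Between both tamoxifen timings, Lag3 in Cre+ was lower at the peak, at -0.999 ± 0.20 (log2, adjusted p = 0.00194), while in Cre- it differed by -0.05 ± 0.19 (adjusted p = 0.987). Marker sums of other cell types also differed between the genotypes at the peak. In peak remyelination, neutrophil markers summed to 379.1 to 4322 CPM in Cre+ and to 150.9 to 237.7 CPM in Cre- libraries. Monocyte markers summed to 89.51 to 638.6 CPM and 53.76 to 77.26 CPM. Only 1 of 6 neutrophil and 1 of 5 monocyte markers were called higher (11.0% of all genes called), and none was at 0. From start to peak in Cre+, 0 neutrophil and 0 monocyte markers were called higher, and 1 monocyte marker was called lower. Il7r rose in Cre+ in naive (1.08 ± 0.19, adjusted p = 0.000201) and in peak remyelination (1.23 ± 0.20, adjusted p = 0.000317), the states in which Lag3 was called lower. Microglial markers, Cx3cr1 among them, summed to 58510 to 59480 CPM in naive Cre+ against 67200 to 73030 CPM in naive Cre-, and to 39590 to 40960 against 40290 to 50330 CPM at the peak, with none of the 8 at 0. Cx3cr1, which carries the recombinase, alone had means of 3077 CPM in Cre+ and 10410 CPM in Cre- in naive. At the peak its means were 3659 and 7736 CPM. Astrocyte markers were lower in Cre+ without overlap in the same states, at 254.9 to 294.7 CPM against 383.5 to 471.9 CPM in naive and at 268.2 to 340.1 CPM against 473.1 to 599.6 CPM at the peak. Of the 4, 1 and 2 were called lower (28.3% and 11.0% of all genes called). Endothelial markers were lower at the peak, with 25.01 to 41.63 CPM against 48.08 to 74.36 CPM and 1 of 4 called (11.0% of all genes). From start to peak in Cre+, 5 of 6 border-associated macrophage markers and 3 of 4 endothelial markers were called lower, as Lag3 was (13.6% of all genes called). None of the astrocyte or endothelial markers was at 0. The part of all these lists in the Lag3 result was not tested.

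Havcr2 (ENSMUSG00000020399, chromosome 11, 46454935 to 46481255, plus strand) encodes TIM-3, a receptor that marks exhausted T cells and is also carried by macrophages. Naive libraries held 552.3, 576.0 and 624.5 CPM in Cre- and 520.7, 509.5 and 526.7 CPM in Cre+. Demyelination libraries held 437.7, 421.5 and 444.4 CPM in Cre- and 547.0, 475.6 and 503.3 CPM in Cre+. The order of the genotypes was thus opposite in these states, with no overlap in either.

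Neither difference in Havcr2 passed on its own in edgeR. It was -0.17 ± 0.09 in naive (adjusted p = 0.174), and 0.23 ± 0.09 in demyelination (adjusted p = 0.131, or 0.0306 in DESeq2). The difference between them, 0.40 ± 0.13, did (adjusted p = 0.0375). That call was lost without the 3 low-Cx3cr1 libraries (0.38, adjusted p = 0.168), with offsets for GC content and transcript length (0.32, adjusted p = 0.117) and in 10 of the 12 fits that left out a single library of these groups (0.35 to 0.42, adjusted p from 0.0504 to 0.0938), the exceptions being naive Cre- replicate 1 and demyelination Cre+ replicate 2. In remyelination the genotypes overlapped, at the start with a Cre- range of 345.3 to 385.4 CPM against a Cre+ range of 340.7 to 411.4 CPM, and at the peak with 342.8 to 430.0 CPM against 322.3 to 354.7 CPM.

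Over the states, Havcr2 fell in Cre- from naive to demyelination (-0.43 ± 0.09, adjusted p = 0.000619) and did not change detectably in Cre+ (-0.03 ± 0.09, adjusted p = 0.818). Start remyelination was below naive by -0.70 ± 0.09 in Cre- and -0.47 ± 0.09 in Cre+ (adjusted p = 6.3e-07 and 0.00013). From demyelination to start remyelination it fell by 0.28 in Cre- (adjusted p = 0.0137) and 0.44 in Cre+ (adjusted p = 0.000205). With GC and length offsets these steps became 0.10 (adjusted p = 0.381) and -0.06 (adjusted p = 0.603), so the direction of the first turned. The Cre- step of Havcr2 was also no longer called without demyelination Cre- replicate 1 or 3 or start remyelination Cre- replicate 1 (-0.26 to -0.24, adjusted p from 0.0512 to 0.0627).

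Cd200r1 (ENSMUSG00000022667, chromosome 16, 44765736 to 44794978, plus strand), the receptor for CD200, had 43.6, 62.1 and 48.3 CPM in naive Cre- and 62.7, 52.8 and 58.5 CPM in naive Cre+. In demyelination the Cre- libraries held 64.6, 60.0 and 56.8 CPM and the Cre+ libraries 94.8, 67.0 and 83.5 CPM. The genotypes overlapped in naive and separated in demyelination, where the 2 highest Cre+ values were those of the low-Cx3cr1 libraries.

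The demyelination difference in Cd200r1 of 0.44 ± 0.14 passed (adjusted p = 0.044) and was lost without these libraries (0.19, adjusted p = 0.899) and in a fit with a replicate block (0.43, adjusted p = 0.0825). It was also lost when any 1 of 5 of the 6 demyelination libraries was left out, each of the 3 Cre- libraries and Cre+ replicates 1 and 3 (0.32 to 0.50, adjusted p from 0.0626 to 0.289). Neutrophil markers summed to 1206 to 1519 CPM in demyelination Cre+ against 198.4 to 798.1 CPM in Cre-. Of these 6 markers 0 were called by edgeR (9.17% of all genes called), and 4 were higher in Cre+ by fitted value. Their part in the Cd200r1 and Vsir differences of that state was not tested. At the peak the Cre+ libraries (40.8, 46.8 and 39.8 CPM) again lay above the Cre- libraries (35.8, 29.4 and 31.8 CPM), a difference of 0.40 ± 0.14 that missed the threshold (adjusted p = 0.0774) and passed without a filter (0.38, adjusted p = 0.0412) and with GC and length offsets (0.41, adjusted p = 0.0403). Start remyelination libraries overlapped, with a Cre- range of 30.9 to 35.9 CPM and a Cre+ range of 23.5 to 34.9 CPM.

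From demyelination to start remyelination Cd200r1 fell by 0.85 ± 0.14 in Cre- (adjusted p = 1.45e-05) and by 1.49 ± 0.14 in Cre+ (adjusted p = 1.21e-09), to below its naive level in both (-0.62 ± 0.14 and -0.996 ± 0.14). The Cre- value against naive was -0.29 (adjusted p = 0.0571) with GC and length offsets. The preceding step from naive to demyelination was 0.23 ± 0.14 in Cre- (adjusted p = 0.197) and 0.50 ± 0.14 in Cre+ (adjusted p = 0.00321), and the latter was 0.33 (adjusted p = 0.208) without the low-Cx3cr1 libraries. Its ligand gene Cd200 held group means of at most 2.07 CPM in these sorted cells.

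**Figure D2:**
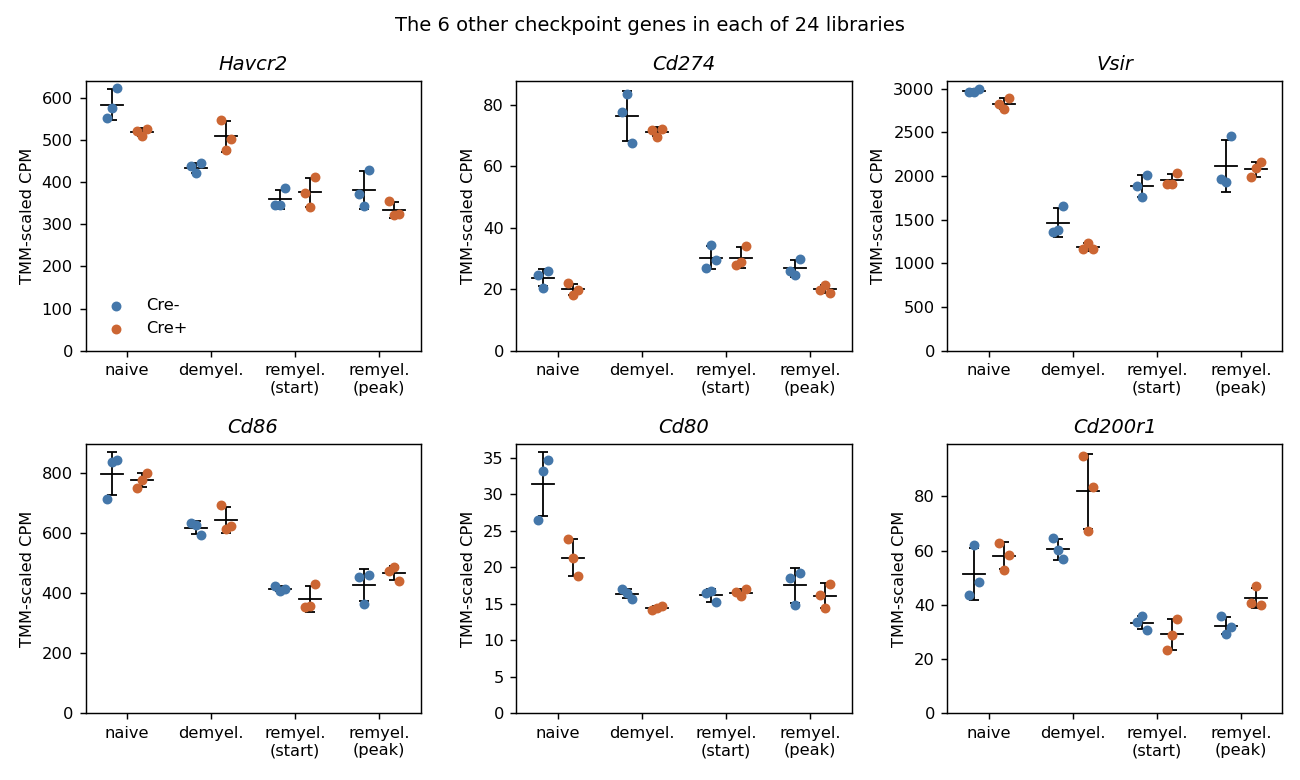
Levels of the 6 other checkpoint genes in TMM-scaled CPM (vertical axes, each from 0) for each of the 24 libraries in the 4 states (horizontal axes), with Cre- in blue and Cre+ in orange. Points are libraries, lines are means and bars are 1 SD (n = 3 per group). Cd274 stands at 67.4 to 83.5 CPM in demyelination and at no more than 34.2 CPM elsewhere, whereas Vsir is lowest in demyelination.

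Cd274 (ENSMUSG00000016496, chromosome 19, 29367455 to 29388095, plus strand) encodes PD-L1. An antisense gene shares 511 exon bases with it, and since the strand setting of the counting is not given in the sources used here, reads of both cannot be told apart. Naive libraries held 24.7, 20.5 and 26.0 CPM in Cre- and 21.9, 18.1 and 19.8 CPM in Cre+. In demyelination they held 77.7, 83.5 and 67.4 CPM in Cre- and 71.8, 69.4 and 72.1 CPM in Cre+. Every demyelination library thus exceeded every other library of the series by a wide margin.

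The rise of Cd274 was 1.69 ± 0.12 (log2) in Cre- (adjusted p = 1.06e-11) and 1.84 ± 0.12 in Cre+ (adjusted p = 8.09e-13, and 1.93 with adjusted p = 9.88e-10 without the low-Cx3cr1 libraries), the largest gain of the 7 in Cre- by fitted value. The fall into start remyelination was -1.33 ± 0.12 and -1.23 ± 0.12 (adjusted p = 5.57e-10 and 7.16e-10). Start remyelination remained above naive by 0.35 ± 0.12 in Cre- (adjusted p = 0.0129) and 0.61 ± 0.12 in Cre+ (adjusted p = 8.84e-05). The Cre- value was no longer called without naive Cre- replicate 2 (0.27, adjusted p = 0.0705) or start remyelination Cre- replicate 2 (0.23, adjusted p = 0.14), or without a filter on low counts (0.27, adjusted p = 0.113).

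Genotypes differed in Cd274 at the peak, with 25.9, 24.5 and 30.0 CPM in Cre- against 19.6, 21.4 and 18.8 CPM in Cre+. The groups did not overlap, and the difference was -0.42 ± 0.12 (adjusted p = 0.0255). It was lost without peak Cre- replicate 3 (-0.33, adjusted p = 0.11), Cre+ replicate 1 (-0.41, adjusted p = 0.0587) or Cre+ replicate 3 (-0.38, adjusted p = 0.115). In the other states the genotypes overlapped, with -0.26 ± 0.12 in naive (adjusted p = 0.1), -0.10 ± 0.11 in demyelination and 0.00 ± 0.12 in start remyelination. The naive difference became -0.36 (adjusted p = 0.0484) without the 3 low-Cx3cr1 libraries and -0.35 (adjusted p = 0.0416) without naive Cre- replicate 2.

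Vsir (ENSMUSG00000020101, chromosome 10, 60346851 to 60372684, plus strand) encodes VISTA and lies across from Cdh23 on the other strand, with 0 shared exon bases. It moved opposite to Cd274 over the lesion. Naive libraries held 2959, 2959 and 2994 CPM in Cre- and 2824, 2768 and 2889 CPM in Cre+. In demyelination they held 1360, 1383 and 1656 CPM in Cre- and 1160, 1237 and 1169 CPM in Cre+. No demyelination library reached the level of any naive library, and Vsir fell by 1.02 ± 0.10 in Cre- (adjusted p = 3.63e-09) and by 1.25 ± 0.10 in Cre+ (adjusted p = 3.09e-11).

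Start remyelination libraries were at 1885, 1755 and 2013 CPM in Cre- and 1913, 1911 and 2039 CPM in Cre+, below all naive libraries. The gain of Vsir over demyelination was 0.36 ± 0.09 in Cre- (adjusted p = 0.00201) and 0.72 ± 0.09 in Cre+ (adjusted p = 2.91e-07), and with GC and length offsets the Cre- gain was 0.18 (adjusted p = 0.0895). Genotypes differed in demyelination by -0.30 ± 0.09 (adjusted p = 0.0426) without overlap. This call was lost without the low-Cx3cr1 libraries (-0.20, adjusted p = 0.821), without Cre- replicate 3 (-0.20, adjusted p = 0.265), without any 1 of Cre- replicates 1 and 2 and Cre+ replicates 1 and 3 (-0.34 to -0.28, adjusted p from 0.0543 to 0.178) and with DESeq2's size factors in edgeR (-0.26, adjusted p = 0.0888). It was also lost without a filter (-0.25, adjusted p = 0.206), with GC and length offsets (-0.25, adjusted p = 0.0671) and in a fit of only the 6 libraries of the state (-0.31, adjusted p = 0.0609), so that Vsir kept this call in 4 of 14 alternatives. In the other states the difference was between -0.07 and 0.05. Selplg, the gene of its partner PSGL-1, fell along with it from naive to demyelination, at -1.20 ± 0.11 in Cre- and -1.05 ± 0.11 in Cre+ (adjusted p = 3.74e-09 and 1.19e-08), from means of 7433 and 7411 CPM.

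Cd80 (ENSMUSG00000075122, chromosome 16, 38455561 to 38496335, plus strand) was highest in naive microglia, at 26.5, 33.1 and 34.7 CPM in Cre- and 23.9, 21.3 and 18.8 CPM in Cre+. No Cre+ library overlapped the Cre- range there. The naive difference of -0.56 ± 0.12 (adjusted p = 0.000745) held in all 14 alternatives, at -0.69 to -0.48, and was -0.69 (adjusted p = 0.000715) without the low-Cx3cr1 library. In all other groups Cd80 lay between 14.1 and 19.2 CPM.

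In demyelination Cd80 held 16.99, 16.5 and 15.7 CPM in Cre- and 14.1, 14.4 and 14.6 CPM in Cre+, again without overlap, but the difference of -0.19 ± 0.12 did not pass (adjusted p = 0.39, and -0.14 with adjusted p = 0.942 without the low-Cx3cr1 libraries). The genotype effect was not shown to differ between naive and demyelination (0.38 ± 0.17, adjusted p = 0.137). From naive to demyelination Cd80 fell by 0.94 ± 0.12 in Cre- (adjusted p = 5.6e-07) and by 0.57 ± 0.12 in Cre+ (adjusted p = 0.000272, and -0.42 with adjusted p = 0.0912 without the low-Cx3cr1 libraries). Start remyelination stayed below naive by -0.96 ± 0.12 in Cre- and by -0.37 ± 0.12 in Cre+ (adjusted p = 3.81e-07 and 0.0123). The Cre+ value of Cd80 was lost without naive Cre+ replicate 1 (-0.25, adjusted p = 0.118), without all 3 low-Cx3cr1 libraries (-0.23, adjusted p = 0.185), with a stricter filter (-0.23, adjusted p = 0.0928) and with GC and length offsets (-0.08, adjusted p = 0.6).

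Cd86 (ENSMUSG00000022901, chromosome 16, 36603869 to 36666081, minus strand), the more abundant of both CD28 ligands per kb, held 713.0, 836.8 and 840.5 CPM in naive Cre- and 749.8, 776.1 and 797.3 CPM in naive Cre+. In demyelination Cre- libraries carried Cd86 at 633.3, 625.3 and 591.4 CPM, while Cre+ libraries carried it at 691.1, 613.8 and 623.9 CPM. In start remyelination the values were 423.8, 407.9 and 412.0 CPM in Cre- and 354.4, 357.8 and 431.0 CPM in Cre+. The genotypes overlapped in each of these states and in peak remyelination, and no genotype difference in Cd86 passed (-0.12 to 0.13, adjusted p from 0.423 to 0.799).

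Cd86 went down stepwise. It fell by 0.37 ± 0.10 in Cre- (adjusted p = 0.00361) and by 0.27 ± 0.10 in Cre+ (adjusted p = 0.0219) on demyelination, and by a further 0.57 ± 0.10 and 0.76 ± 0.10 in start remyelination (adjusted p = 1.79e-05 and 2.07e-07). The first Cre+ step was lost without the low-Cx3cr1 libraries (-0.30, adjusted p = 0.126), with DESeq2 (-0.22, adjusted p = 0.0514), with its size factors in edgeR (-0.22, adjusted p = 0.0701), without a filter (-0.24, adjusted p = 0.09) and without naive Cre+ replicate 2 or 3 or demyelination Cre+ replicate 2 or 3 (-0.27 to -0.23). In Cre+ the peak group exceeded the start group by 0.29 ± 0.10 (adjusted p = 0.0446, and 0.30 with adjusted p = 0.0511 in a fit with a replicate block). That call was lost when any 1 of 5 of the 6 libraries was left out, the exception being start remyelination Cre+ replicate 3 (0.25 to 0.33, adjusted p from 0.0578 to 0.189). It was lost too with DESeq2's size factors in edgeR (adjusted p = 0.0523), without a filter (adjusted p = 0.213) and with a stricter one (adjusted p = 0.0689), so that Cd86 kept it in 3 of 12 alternatives.

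**Figure D3:**
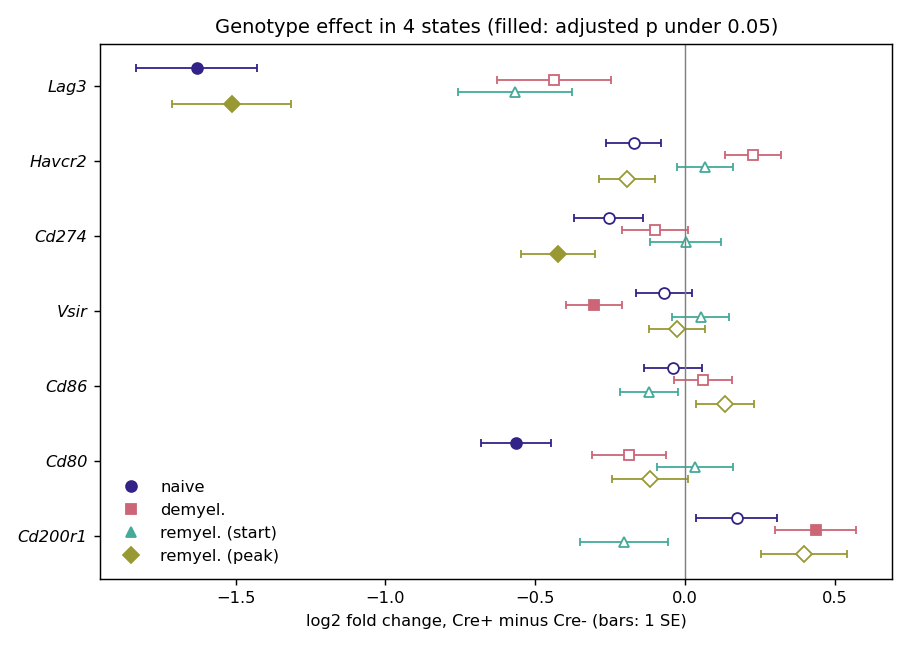
Difference between genotypes (log2 fold change, Cre+ minus Cre-, horizontal axis) for the 7 genes (vertical axis) in the 4 states, with bars of 1 SE. Filled symbols passed an adjusted p of 0.05. Lag3 stands apart at -1.63 in naive and -1.51 in peak remyelination, and the other filled symbols lie between -0.56 and 0.44.

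Counted over the set, 2 of the 7 genes were called between genotypes in naive microglia, both lower in Cre+ (Lag3 and Cd80), against 28.3% of all genes tested. In demyelination 2 were called, Vsir lower and Cd200r1 higher (9.17% of all genes). Without the 3 low-Cx3cr1 libraries, with 1 Cre+ library left, both calls were lost, as were most calls over all genes. In start remyelination 0 were called by edgeR (0.0341% of all genes, or 6) and 0 by DESeq2, and 1, Lag3, had an unadjusted p under 0.05 in edgeR. In peak remyelination Lag3 and Cd274 were called lower (11.0% of all genes). The median log2 difference of the 7 was -0.17, -0.10, 0.00 and -0.12 in these states, against -0.01, -0.01, -0.04 and 0.00 (rounded) for all genes tested. In naive microglia the share called among the 7 was thus near the background.

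Of the differences between genotype effects, that of demyelination against naive was called for 2 of the 7, Lag3 and Havcr2 (15.8% of all genes). Start remyelination against demyelination gave 0 calls in edgeR (3.74% of all genes, with 2 of the 7 at an unadjusted p under 0.05), and peak against start 0 calls (3.77%, with 3 of the 7). By DESeq2 each of these latter comparisons gave 1 call, Cd200r1 in the first (-0.69, adjusted p = 0.0283, against -0.64 and 0.0695 in edgeR) and Lag3 in the second.

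State changes were more common. From naive to demyelination 6 of 7 genes changed in Cre- (35.9% of all genes), Lag3 and Cd274 upward and Vsir, Cd80, Cd86 and Havcr2 downward. In Cre+ 6 changed as well (52.2%), with Cd200r1 upward in addition and Havcr2 not called. Without the low-Cx3cr1 libraries, with 1 demyelination Cre+ library left, the Cre+ calls of Cd200r1, Cd80 and Cd86 were lost. Fewer of all genes were called in that fit too. From demyelination to start remyelination 6 changed in Cre- (54.7%) and 6 in Cre+ (63.3%), all but Cd80, with Lag3 and Vsir upward and the other 4 downward. Cd80 in Cre+ differed by 0.20 ± 0.12 over this step without overlap (adjusted p = 0.16 in edgeR). It passed in 2 of 13 alternatives, whose values ran from 0.15 to 0.49.

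Start remyelination differed from naive for 7 of 7 genes in Cre- (56.2% of all genes) and in Cre+ (57.9%), with Lag3 and Cd274 higher and the other 5 lower in both. Between peak and start timing 0 of the 7 were called in Cre- by edgeR, by DESeq2 or at an unadjusted p under 0.05 in edgeR (0.546% of all genes), whereas 4 did in Cre+ (13.6%), Lag3 and Cd274 lower and Cd200r1 and Cd86 higher at the peak. The Cd200r1 call (0.55 ± 0.14, adjusted p = 0.0123) was lost without start remyelination Cre+ replicate 1 (0.42, adjusted p = 0.0935) or peak remyelination Cre+ replicate 2 (0.48, adjusted p = 0.067). Lag3 alone of the 7 was called higher at both steps, from naive to demyelination and on to start remyelination, in both genotypes with all libraries, while Cd274 was highest and Vsir lowest in demyelination.

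**Figure D4:**
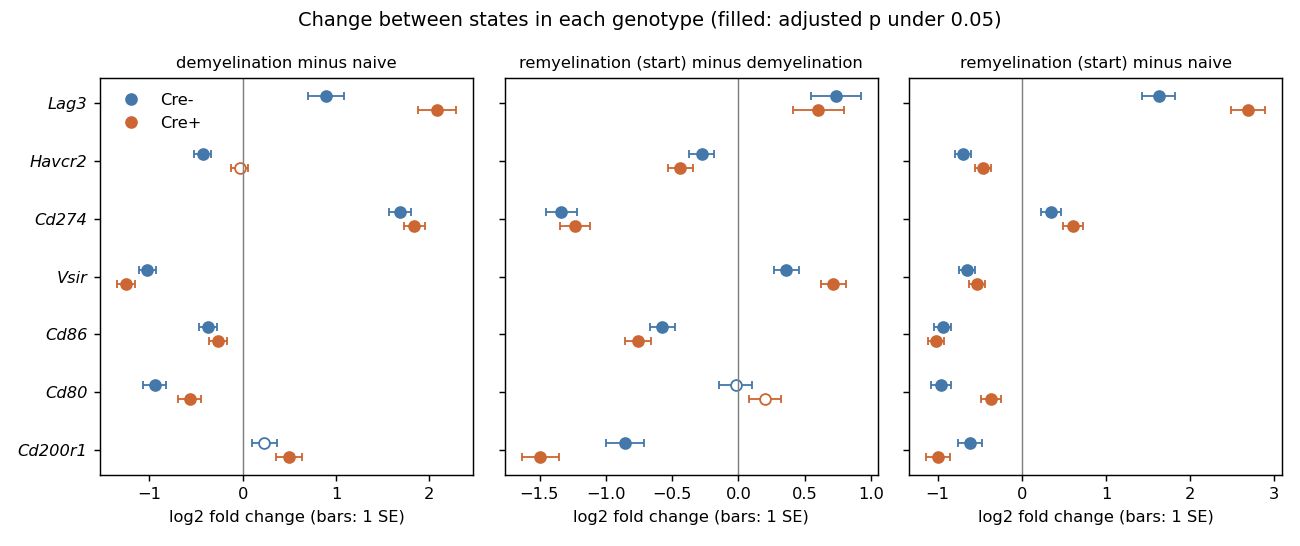
Log2 fold changes between states (horizontal axes, bars of 1 SE) for the 7 genes (vertical axis) in Cre- (blue) and Cre+ (orange). Filled symbols passed an adjusted p of 0.05. Lag3 lies to the right in all 3 panels, Cd274 rises by 1.69 and 1.84 and falls again by 1.33 and 1.23, and Vsir does the opposite.

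Across the 24 libraries, log2 CPM of Cd274 and Vsir ran against each other (Pearson r = -0.85, n = 24 libraries), and Havcr2 ran with Cd86 (r = 0.90), as did Cd200r1 (r = 0.80). Lag3 ran against Cd86 (r = -0.71). These values share the libraries and their state and are given as a description. Among 10030 genes with a mean log2 CPM of at least 2, those nearest to Lag3 were Pyroxd2 (r = 0.94), Sdc4 (0.93) and Acsf2 (0.93). Nearest to Cd274 were Aplp2 (0.98), Clec7a (0.98), which encodes the receptor dectin-1 of activated microglia, and Lpl (0.97), which encodes lipoprotein lipase. Vsir was nearest to Rtn4rl1, Entpd1, which encodes the ectonucleotidase CD39, and Prkab1 (0.98 each). For Havcr2 they were Gorasp2, Saraf and Msrb2 (0.94 each), for Cd86 Derl2, Csnk1a1 and Calm2 (0.99, 0.99 and 0.98), for Cd80 Rin2, Susd3 and Ifngr1 (0.93, 0.91 and 0.90), and for Cd200r1 Mtch2, Hat1 and Rnft1 (0.98, 0.97 and 0.97).

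Of 17 listed binding partners of the 7 proteins, 15 passed the filter on low counts. In naive microglia 1 was higher in Cre+ and 3 were lower, a share near the 28.3% of all genes called. Pdcd1, the gene of PD-1, rose from 13.1 ± 0.80 to 25.9 ± 6.8 CPM (SD, n = 3, log2 0.97 ± 0.20, adjusted p = 0.000903). Without the 3 low-Cx3cr1 libraries its difference was 0.73 (adjusted p = 0.00655). Lgals3, the gene of the LAG3 ligand galectin-3, fell from 7.75 ± 0.52 to 2.23 ± 0.65 CPM (-1.74 ± 0.40, adjusted p = 0.00331, and -1.62 with adjusted p = 0.00659 without those libraries). The MHC class II genes H2-Ab1 and H2-Aa, whose products LAG3 binds, were lower by -0.88 ± 0.26 and -0.86 ± 0.29 (adjusted p = 0.0153 and 0.0351). Without the 3 low-Cx3cr1 libraries they were at -0.78 and -0.82 (adjusted p = 0.0847 and 0.124). The median over the 15 partners was 0.00 (rounded) and over all genes -0.01.

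In demyelination 2 partners were higher and 4 lower in Cre+, with a median of 0.14 against -0.01 over all genes, of which 9.17% were called. Those lower were class II genes and the invariant chain gene Cd74, with Cd74 at 2451 CPM in Cre- and 992.4 CPM in Cre+ (-1.30 ± 0.21, adjusted p = 0.000984), H2-Aa at -1.82 ± 0.28, H2-Eb1 at -1.89 ± 0.30 and H2-Ab1 at -1.54 ± 0.25 (adjusted p = 0.00104 to 0.00145). Higher were Pdcd1, from 124.0 to 243.1 CPM, and Lgals9, the gene of the TIM-3 ligand galectin-9, from 668.5 ± 5.46 to 934.7 ± 55.1 CPM. Without the low-Cx3cr1 libraries, with 1 Cre+ library left, the partner calls were lost, as were most calls over all genes. Cd74 was then at -1.33 and Lgals9 at 0.44. Some markers of other cells that carry class II were also called lower in demyelination Cre+. They were 2 of 6 for border-associated macrophages (73.91 to 84.5 CPM against 104.9 to 166.6 CPM) and 2 of 6 tested for dendritic cells, with 1 higher. For monocytes 2 of 5 were called lower, although their sum ran higher, at 171.2 to 207.7 CPM against 89.12 to 201.1 CPM. The 1 tested for B cells was called lower. Of all genes 9.17% were called. The part of these cell types in the class II difference was not tested. In start remyelination 0 partners were called by edgeR (0.0341% of all genes) and 0 by DESeq2 (3 at an unadjusted p under 0.05 in edgeR, median 0.14, all genes -0.04). At the peak 1 was called (11.0% of all genes), Ceacam1, a TIM-3 partner that rose from 58.5 to 90.1 CPM (0.62 ± 0.12, adjusted p = 0.00112).

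Most partners differed between naive and demyelination. From naive to demyelination 9 of 15 rose and 2 fell in Cre-, and 12 rose and 2 fell in Cre+, with medians of 3.24 and 2.78 against 0.04 and 0.01 over all genes, of which 35.9% and 52.2% were called. Markers of border-associated macrophages (6 of 6) and monocytes (4 of 5 in Cre- and 3 of 5 in Cre+) were called higher over the same step, and their part in these changes was not tested. Pdcd1 rose by 3.24 ± 0.21 in Cre- and 3.24 ± 0.20 in Cre+ (adjusted p = 8.45e-11 and 2.07e-11), the gene of PD-1 and that of its ligand thus being higher in the same sorted population. Lgals3 rose by 6.09 ± 0.39 and 6.90 ± 0.42 from means of 7.75 and 2.23 CPM. Pdcd1lg2, the gene of the other PD-1 ligand, reached only 0.659 and 1.92 CPM, and Cd28 only 2.67 and 3.51 CPM. Ctla4 stayed at group means of at most 1.37 CPM.

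Of 30 other checkpoint receptors and ligands, 20 were tested. In naive microglia 2 were higher and 4 lower in Cre+ (median 0.04, all genes -0.01), a share near the 28.3% of all genes called. The 4 lower were Pilra, an inhibitory receptor of myeloid cells, at -1.35 ± 0.16 (adjusted p = 1.85e-06), Tnfsf9, the gene of the 4-1BB ligand, at -1.44 ± 0.28 (adjusted p = 0.000485), Cd84 at -0.63 ± 0.12 (adjusted p = 0.000217) and Cd300a at -0.37 ± 0.09 (adjusted p = 0.00353). Without the low-Cx3cr1 library these 4 were still called, and 5 were lower and 0 higher. In demyelination 5 were higher and 2 lower (median 0.03, all genes -0.01, with 9.17% of all genes called). Cd244a, the gene of the CD48 receptor 2B4, stood at 20.6 CPM in Cre- and 71.7 CPM in Cre+ (1.80 ± 0.25, adjusted p = 0.000299) and Cd40 at 3.89 and 16.2 CPM (2.06 ± 0.38, adjusted p = 0.00175). Without the low-Cx3cr1 libraries, with 1 Cre+ library left, the demyelination calls of this list were lost, as were most calls over all genes. Cd244a was then at 0.92 and Cd40 at 0.36.

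In remyelination 0 of these 20 were called at the start by edgeR (0.0341% of all genes) and 0 by DESeq2 (4 at an unadjusted p under 0.05 in edgeR, median -0.16, all genes -0.04). At the peak 2 were called (median -0.04, all genes 0.00 rounded), a share near the 11.0% of all genes called. Cd300a was lower (-0.32 ± 0.09, adjusted p = 0.0281) and Cd47, the gene of a signal against phagocytosis, higher (0.35 ± 0.11, adjusted p = 0.0422). On demyelination 10 rose and 6 fell in Cre-, and 12 rose and 7 fell in Cre+ (medians 0.35 and 0.89, all genes 0.04 and 0.01). Of all genes 35.9% and 52.2% were called. Cd200r4, a relative of Cd200r1 in the same gene family, rose by 4.58 ± 0.27 and 5.79 ± 0.29 (adjusted p = 2.25e-12 and 4.94e-14), from 1.5 to 36.7 CPM in Cre- and from 0.812 to 47.5 CPM in Cre+, where it was 5.69 without the low-Cx3cr1 libraries. Reads may be shared between members of that family.

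Of 20 adaptors, sheddases and regulators that act on the 7 genes or their products, all were tested. Ifngr2, a chain of the interferon gamma receptor, whose signal induces Cd274, was higher in Cre+ in naive (0.84 ± 0.14, adjusted p = 0.000101), demyelination (0.61 ± 0.14, adjusted p = 0.00853) and peak remyelination (0.75 ± 0.14, adjusted p = 0.00113). Leaving out the low-Cx3cr1 libraries, the naive value was 0.68 (adjusted p = 0.000108) and the demyelination value 0.22 (adjusted p = 0.821). In naive microglia 7 of the 20 were higher and 2 lower (median 0.24, all genes -0.01, with 28.3% of all genes called). Among the higher were Jak2 (1.18 ± 0.23, adjusted p = 0.000836) and Nfkb1 (0.52 ± 0.10, adjusted p = 0.000357), which were at 1.30 and 0.41 without the low-Cx3cr1 library and still called. In demyelination 1 was higher and 2 lower (median -0.01, all genes -0.01, with 9.17% of all genes called). At the start 0 were called by edgeR, by DESeq2 or at an unadjusted p under 0.05 in edgeR (median -0.07, all genes -0.04, with 0.0341% of all genes called). At the peak 5 were higher and 0 lower (median 0.11, all genes 0.00 rounded, with 11.0% of all genes called). Among these 5 were Adam17 (0.41 ± 0.11, adjusted p = 0.0154) and Adam10 (0.48 ± 0.14, adjusted p = 0.0274), proteases that shed LAG3 and TIM-3 from the cell surface.

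From naive to demyelination 5 of these 20 rose and 8 fell in Cre-, and 4 rose and 13 fell in Cre+ (medians 0.01 and -0.46, all genes 0.04 and 0.01). Of all genes 35.9% and 52.2% were called. Dok2, an adaptor below CD200R1, rose by 3.17 ± 0.30 and 4.08 ± 0.32 (adjusted p = 7.22e-09 and 6.27e-11). Cmtm6, whose product keeps PD-L1 on the cell surface, fell in Cre- from 2065 to 912.7 CPM (-1.18 ± 0.14, adjusted p = 3.32e-07), in the state in which Cd274 was highest.

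Since the genotype is meant to remove mature miRNAs, the 3′ UTRs of the 7 genes (longest annotated, GENCODE M21) were searched for the 7 bases that pair with bases 2 to 8 of 17 miRNAs of families known in microglia. Lag3 has a 3′ UTR of 81 bases, which held a match to 0 of the 17. Vsir (3745 bases) held matches to 9, Cd86 (1493 bases) to 4, Havcr2 (1809 bases) and Cd80 (1896 bases) to 3 each, and Cd274 (2683 bases) and Cd200r1 (638 bases) to 2 each. The miR-16 match, the commonest among the 7 (in 24.3% of 13386 3′ UTRs), lay in 4 of them, Cd274, Vsir, Cd80 and Cd200r1. The let-7 match, present in 10.6% of the 13386 3′ UTRs of tested genes, recurred in 3 of the 7 and is shown with its flanks beside the miRNA, because let-7 shares its seed across a whole family. The miR-155 match in Cd274 (in 9.32% of 3′ UTRs) is shown because miR-155 is induced in activated myeloid cells. Capitals mark the seed in the miRNA and its match in the 3′ UTR, all written 5′ to 3′.
let-7a-5p: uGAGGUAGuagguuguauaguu
Havcr2, 3′ UTR bases 978 to 984: tctctgtgcctgCTACCTCtctata
Cd86, 3′ UTR bases 437 to 443: atacctggacagCTACCTCttcagt
Cd200r1, 3′ UTR bases 520 to 526: gcataagtaaatCTACCTCattctt
miR-155-5p: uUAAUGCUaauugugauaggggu
Cd274, 3′ UTR bases 953 to 959: agttcattgtctAGCATTAcattta
The position numbers of the sites are those of the capitals, and the miRNA sequences are those of RefSeq. Beside these matches, the genes with a let-7 site differed between genotypes by -0.17 (Havcr2), -0.04 (Cd86) and 0.17 (Cd200r1) in naive, and Cd274 by -0.26, none of them called. In demyelination the values were 0.23, 0.06 and 0.44, and -0.10 for Cd274, with Cd200r1 called. None was called in start remyelination. At the peak the values were -0.19, 0.13 and 0.40, and -0.42 for Cd274, with Cd274 called. Lag3, whose 3′ UTR of 81 bases held 0 matches, was at -1.63 in naive and -1.51 at the peak. The part of miRNA loss in these differences was not tested. A match is a description of the letters and does not show that the miRNA acts there.

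Promoter windows of 300 bases, most of them before the start of transcription (RefSeq, GRCm38.p6), were read for Cd274, Cd80, Havcr2 and Vsir. For Lag3, Cd86 and Cd200r1 no window was available in the sources used here. The windows were searched on both strands for an interferon-stimulated element (GAAA and GAAA separated by 2 bases, in 3.44% of the 32851 promoters), a STAT site (TTCNNNGAA, in 8.3%), an NF-kB-like site (GGG and CC separated by 5 bases, in 50.8%), a C/EBP-like site (TTGCNNAA, in 10.8%) and the PU.1 core (GAGGAA, in 28.3%). Cd274 and Vsir held 0 matches, and Havcr2 held 1, a PU.1 core 8 bases before the start. Cd80 held 2 NF-kB-like matches, the second on the other strand, and none for the other motifs. They lay 210 and 52 bases before the RefSeq start used. That start lies inside the Cd80 gene as GENCODE M21 places it, downstream of the annotated first base at 38455561. The window is shown because of these matches, on the plus strand at chr16:38458683-38458982, with the matches in capitals.
Cd80: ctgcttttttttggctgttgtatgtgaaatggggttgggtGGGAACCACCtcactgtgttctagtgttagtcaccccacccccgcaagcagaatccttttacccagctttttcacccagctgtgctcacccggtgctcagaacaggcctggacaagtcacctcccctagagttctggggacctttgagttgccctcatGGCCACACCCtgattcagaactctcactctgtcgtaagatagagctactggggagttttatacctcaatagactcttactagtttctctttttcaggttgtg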

How the data were processed

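Gene-level raw counts of 24 libraries were analysed as the authors deposited them. Per the submitters' processing notes, the tools named are Trimmomatic 0.36, STAR 2.5.2b, featureCounts, Subread 1.5.2 and DESeq2, and the build is GRCm38. Whether counting used strand, and how reads with several alignments were counted, is not given in the sources used here. Symbols and positions came from GENCODE M21, which holds 49056 of the 49315 identifiers.

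Counts were fitted in R 4.3.3 with edgeR 4.0.16: filterByExpr, TMM, means of 8 groups over all 24 libraries, robust quasi-likelihood F tests with 16 residual degrees of freedom, 2-sided, Benjamini-Hochberg adjustment over 17579 genes and a threshold of 0.05. SE are the fitted log2 fold change over the root of F. DESeq2 1.42.0 was an alternative. The fit was tested on simulated counts. Correlations used log2(CPM + 0.5).

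The 7 genes, the gene lists and the alternatives were chosen with earlier results of these data known. Named beside the 7 are partners, the called genes of smallest p in each list, and the 3 genes of highest correlation with each of the 7. One listed gene that this rule would name is not reported here. Replicate numbers were checked for pairing by the correlation of residuals: in peak remyelination same-numbered libraries of both genotypes gave r of 0.188, 0.321 and 0.106, and naive and demyelination Cre+ libraries 0.18, 0.172 and 0.147, and elsewhere not all 3 exceeded 0.1.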

Additional observations from a re-analysis of the deposited data

Results flagged for a closer look

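The genotype effect differed between demyelination and naive microglia for 2 of the 7 genes by the interaction test in edgeR. For Lag3 the effect moved by 1.19 (log2, adjusted p = 0.0061), from -1.63 in naive to -0.44 in demyelination, and Cre+ was the lower genotype in 3 of 3 libraries of either state. For Havcr2 it moved by 0.40 (adjusted p = 0.0375), from -0.17, with 3 of 3 Cre+ libraries below the Cre- range, to 0.23, with 3 of 3 above it. The Havcr2 call was lost in 12 of 19 alternatives, among them 10 of the 12 that left out a single library, and the Lag3 call in 0 of 19.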

How the results depend on the processing

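Of 105 results (7 genes in 15 comparisons), 50 passed the threshold, and 34 of these kept their call and direction in every alternative run. These include Lag3 in naive (-1.85 to -1.45) and peak remyelination (-1.82 to -1.37), its interaction between demyelination and naive (1.02 to 1.42) and Cd80 in naive (-0.69 to -0.48). The number of the 7 genes called between genotypes in demyelination was 2, and 3 with DESeq2. It was 1 with DESeq2's size factors, with GC and length offsets and with a replicate block. In start remyelination it was 0, and 1 (Lag3, -0.52) without a filter. From naive to demyelination in Cre+ it was 6. Without the 3 low-Cx3cr1 libraries both demyelination calls and some of the Cre+ calls from naive to demyelination were lost. Calls over all genes were also fewer there, with 1 demyelination Cre+ library left. Interactions called were 2 for demyelination against naive (1 with offsets, 1 without these libraries), 0 for peak against start (1 with DESeq2, with its size factors, without a filter and with a stricter filter) and 0 for start against demyelination (1 with DESeq2, 1 without a filter). Leaving out a single library gave 0 to 2 calls in demyelination, 2 to 3 in naive, 1 to 2 in peak remyelination, 1 to 3, 0 to 1 and 0 to 1 for the interactions in the order above, and 2 to 4 for peak against start in Cre+. Calls not made with all libraries appeared for Cd80 in the first interaction (0.49 without naive Cre- replicate 1), for Cd200r1 in the second (0.75 without start Cre+ replicate 3) and the third (-0.77 and -0.79 without demyelination Cre+ replicate 2 or start Cre+ replicate 3), and for Cd200r1 from naive to demyelination in Cre- (0.39 without naive Cre- replicate 2). The causes were not tested. The replicate block changed the call of 1 gene in demyelination (Cd200r1, 0.43, adjusted p = 0.0825) and of 1 in peak against start Cre+ (Cd86, 0.30, adjusted p = 0.0511) and no other.

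Only 1 called value changed direction, Havcr2 from demyelination to start remyelination in Cre- (0.10 with offsets). Values near 0 that were not called also turned. For Cd274 between genotypes in start remyelination these were -0.002 with DESeq2 and with its size factors (-0.09 to 0.10 leaving out a library). Cd80 from demyelination to start remyelination in Cre- gave 0.019 with both, 0.058 with the stricter filter and 0.23 with offsets (-0.061 to 0.034). Havcr2 from naive to demyelination in Cre+ gave 0.023 and 0.022 with both and 0.01 with the stricter filter (-0.086 to 0.023). Leaving out a library turned further values: in start remyelination between genotypes Cd80 (-0.007 to 0.064) and Havcr2 (-0.003 to 0.13), in peak remyelination between genotypes Vsir (-0.086 to 0.10), for peak against start in Cre- Cd200r1 (-0.13 to 0.012), Cd86 (-0.023 to 0.14), Havcr2 (-0.009 to 0.16) and Lag3 (-0.17 to 0.089), in Cre+ Cd80 (-0.11 to 0.045), and among interactions Vsir (peak against start, -0.14 to 0.047) and Lag3 (start against demyelination, -0.20 to 0.012).

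Over all genes, calls between genotypes in start remyelination were 6, and 43 with DESeq2, 81 without a filter and 40 with only the 6 libraries of the state. In demyelination they were 1612, and 81 without the low-Cx3cr1 libraries, where 1 Cre+ library was left. For the interactions of start against demyelination and peak against start they were 657 and 662, and 1359 and 989 with DESeq2. CPM on plain totals were 0.789 to 1.22 times the TMM-scaled values. Depth was lowest in remyelination, where Cd80 had as few as 167 counts in a library.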
